A study of Mus musculus with 53 samples.

Results

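Pdgfra and Kit are neighbouring genes on mouse chromosome 5 that encode related receptor tyrosine kinases, and they are described here from the CUT&RUN peaks of a window that runs from 200 kb upstream of Pdgfra to 100 kb downstream of Kit. Both genes lie on the plus strand of mm10 (GENCODE M21): Pdgfra (ENSMUSG00000029231) at chr5:75152292-75198215 and Kit (ENSMUSG00000005672) at chr5:75574916-75656722, with 377 kb between the end of the first and the start of the second. The window spans chr5:74952292-75756722, or 804 kb, and was divided at the midpoint between the genes into a Pdgfra segment of 434 kb and a Kit segment of 370 kb. It held 1125 of the 1997019 peaks deposited for 35 libraries. Pdgfra and Kit are 2 of 21938 protein-coding genes annotated on the assembled chromosomes, and the other protein-coding genes of the window are Chic2 and Gsx2, both in the Pdgfra segment.

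PDGFRA binds platelet-derived growth factors and is widely used as a surface marker of primitive endoderm, the extra-embryonic lineage that separates from the epiblast in the mammalian blastocyst. KIT binds stem cell factor and is best known for its roles in germ cells, melanocytes and blood progenitors. GATA6 is a zinc finger transcription factor required for primitive endoderm, and SOX2 is a high-mobility-group factor of the pluripotent epiblast. H3K27ac marks active promoters and enhancers, and H3K4me1 marks enhancers whether or not they are active.

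The series profiled mouse embryonic stem cells of the E14JU line that carry SOX2 fused to GFP and GATA6 fused to mCherry at the endogenous loci, a reporter line named SGGC. Every library came from clone B9 or B12, so both fusions and the resistance cassettes left in these clones were shared by all groups. The pluripotent populations were cells in 2iLIF (a MEK inhibitor, a GSK3 inhibitor and LIF), cells in NACL (Activin A, a GSK3 inhibitor and LIF in defined medium) and cells grown in knockout serum replacement (KOSR) and sorted as SOX2+. The double-positive (DP) cells were sorted from KOSR cultures for SOX2-GFP together with GATA6-mCherry, and nEnd cells were naive extra-embryonic endoderm differentiated in RACL medium. All KOSR libraries came from clone B12, and both nEnd H3K4me1 libraries from clone B9. SOX2 was profiled in 2 libraries of 2iLIF, 2 of NACL, 3 of SOX2+ and 3 of DP, and GATA6 in 3 of DP and 2 of nEnd. Each histone mark was profiled in 2 libraries of 2iLIF, 2 of NACL, 2 of SOX2+, 1 of DP and 2 of nEnd. For 2 further histone libraries the title names DP and the source name names SOX2+, so they entered no group and are given apart as unassigned. The NACL B12 SOX2 library was placed by its title, since its source name gives IgG and SOX2 and no medium.

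The lists differed in length, which sets how much of any locus they can report. SOX2 lists held 8203 to 29623 peaks in the pluripotent libraries and 1378 to 5320 in DP, and GATA6 lists held 1391 to 8316 peaks in DP and 24223 to 32510 in nEnd. H3K27ac lists covered 13.2% to 21.6% of the genome in 2iLIF and NACL, 0.960% to 1.05% in SOX2+ and 5.03% to 6.43% in nEnd. Counts of transcription factor peaks are therefore given per 1000 peaks of the list, and histone coverage as a ratio to the share of the genome that the same list covers. The sequencing depth is unknown, since the lists hold peaks and not reads. As a check of labels, H3K27ac within 1 kb of the start was found for 3 of 4 endoderm genes (Gata4, Sox17 and Foxa2, not Dab2) in both nEnd libraries, where of Nanog, Esrrb, Zfp42 and Prdm14 only Zfp42 had a peak. In the DP library none of those endoderm genes had such a peak and Nanog and Zfp42 did. The pluripotent libraries were less uniform: NACL B12 had peaks at Sox17 and Foxa2 and none at Nanog, NACL B9 had one at Foxa2, 2iLIF B12 one at Dab2, and SOX2+ B, like nEnd, had only Zfp42 of the pluripotency genes.

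SOX2 and GATA6 peaks of the 15 transcription factor libraries merged into 87 regions, 51 in the Pdgfra segment and 36 in the Kit segment. Merging chains overlapping peaks, so any 2 peaks of a region need not overlap each other. Co-bound regions, defined as those with SOX2 in at least 1 DP library and GATA6 in at least 1 DP library, numbered 7 (8.05%), against a background of 3.20% of 72577 merged regions genome-wide. At 3 of them a factor was listed in a single DP library, and with at least 2 DP libraries of each factor 4 regions were left, against 1.37% genome-wide. With the stronger 50% of each list 4 of 50 merged regions were co-bound, and no genome-wide share was taken at that setting. The Pdgfra segment held 6 of the 7 and the Kit segment 1. Their reference sequences are shown because they carry both factors in DP cells, together with the GATA6 sites 0.7 kb upstream and 215.1 kb downstream of the Pdgfra start, which were chosen after their values were seen. Each is the plus strand of 200 bases of GRCm38 centred on the highest signal of the strongest DP GATA6 peak. Capitals mark the GATA core GATAA (or TTATC on the other strand), the SOX core ACAAAG or ACAATG (or CTTTGT and CATTGT) and the octamer ATGCAAAT (or ATTTGCAT).
199.1 kb upstream of the Pdgfra start, chr5:74953085-74953284: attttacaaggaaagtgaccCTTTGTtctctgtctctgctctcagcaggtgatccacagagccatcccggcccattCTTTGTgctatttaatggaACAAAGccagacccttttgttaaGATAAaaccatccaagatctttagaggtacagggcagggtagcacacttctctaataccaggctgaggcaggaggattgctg
33.8 kb upstream of the Pdgfra start, chr5:75118131-75118330: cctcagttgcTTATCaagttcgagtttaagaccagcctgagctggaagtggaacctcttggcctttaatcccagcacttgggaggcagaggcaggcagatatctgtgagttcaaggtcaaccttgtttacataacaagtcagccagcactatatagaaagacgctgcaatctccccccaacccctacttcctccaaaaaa
14.3 kb upstream of the Pdgfra start, chr5:75137889-75138088: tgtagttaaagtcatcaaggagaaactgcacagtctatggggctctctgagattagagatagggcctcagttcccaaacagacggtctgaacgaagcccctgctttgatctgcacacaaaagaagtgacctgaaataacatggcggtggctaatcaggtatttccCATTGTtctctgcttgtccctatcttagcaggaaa
8.4 kb upstream of the Pdgfra start, chr5:75143664-75143863: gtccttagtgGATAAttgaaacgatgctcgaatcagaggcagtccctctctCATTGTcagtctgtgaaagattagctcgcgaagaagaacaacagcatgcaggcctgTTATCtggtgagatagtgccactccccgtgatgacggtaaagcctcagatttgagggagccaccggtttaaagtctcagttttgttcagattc
5.6 kb upstream of the Pdgfra start, chr5:75146584-75146783: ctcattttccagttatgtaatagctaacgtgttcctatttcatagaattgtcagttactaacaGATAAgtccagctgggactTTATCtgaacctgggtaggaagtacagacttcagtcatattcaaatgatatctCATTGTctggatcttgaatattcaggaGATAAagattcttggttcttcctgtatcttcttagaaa
0.7 kb upstream of the Pdgfra start, chr5:75151459-75151658: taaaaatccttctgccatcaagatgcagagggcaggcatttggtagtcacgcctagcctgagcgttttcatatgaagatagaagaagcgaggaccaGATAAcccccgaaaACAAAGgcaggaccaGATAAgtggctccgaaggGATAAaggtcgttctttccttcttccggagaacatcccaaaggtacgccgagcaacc
57.9 kb downstream of the Pdgfra start, chr5:75210126-75210325: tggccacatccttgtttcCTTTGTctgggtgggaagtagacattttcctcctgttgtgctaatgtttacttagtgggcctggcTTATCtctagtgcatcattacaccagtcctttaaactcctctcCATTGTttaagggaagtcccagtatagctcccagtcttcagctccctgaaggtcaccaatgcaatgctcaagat
215.1 kb downstream of the Pdgfra start, chr5:75367220-75367419: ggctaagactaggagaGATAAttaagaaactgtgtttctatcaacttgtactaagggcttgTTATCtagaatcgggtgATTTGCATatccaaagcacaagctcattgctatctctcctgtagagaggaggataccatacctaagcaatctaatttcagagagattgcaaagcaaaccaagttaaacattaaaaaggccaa
25.3 kb downstream of the Kit start, chr5:75600165-75600364: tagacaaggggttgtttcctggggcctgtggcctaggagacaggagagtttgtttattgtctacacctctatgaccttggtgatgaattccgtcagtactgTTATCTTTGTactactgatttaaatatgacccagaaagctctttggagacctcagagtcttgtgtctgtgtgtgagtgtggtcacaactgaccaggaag
The 7 co-bound windows held a GATA core in 6 cases, a SOX core in 6 and both in 5. Among all 2325 regions co-bound in DP genome-wide, windows of the same length held a GATA core in 81.8%, a SOX core in 56.0%, both in 45.8% and the octamer in 4.47%. Among all 8703 regions with GATA6 in DP the shares were 85.0%, 37.9%, 32.6% and 3.07%. In the Kit intron the cores TTATC and CTTTGT shared a base, and their midpoints lay 3.5 and 8 bases downstream of the window's centre. At the site 0.7 kb upstream of Pdgfra a GATA core spanned the centre. The strongest DP SOX2 and GATA6 maxima were 2 bases apart at 57.9 kb downstream of the Pdgfra start, 6 at 199.1 kb upstream and 18 in the Kit intron, and at the sites 8.4, 14.3, 33.8 and 5.6 kb upstream they were 48, 49, 258 and 322 bases apart. At 33.8 and 5.6 kb upstream the SOX2 maximum therefore lay outside the printed bases. A match is a description of the letters and not of binding.

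Upstream of Pdgfra, 4 co-bound regions stood inside the long non-coding RNA gene Gm19583, the farthest 33.8 kb from the Pdgfra start, and of the pluripotent libraries only NACL B12, the library placed by its title, had SOX2 at any of them. The list of each library was ranked by the highest signal within a peak, and the percentile is the share of the list with a lower value. Inside Gm19583 but outside these 4 regions, NACL B9 had 2 SOX2 peaks, at the 30.1st and 5.66th percentiles. The weaker peak lay next to the region 14.3 kb upstream, in a separate merged region that also held GATA6 in DP A and nEnd B12. At 5.6 kb upstream, in an exon of Gm19583, GATA6 signal stood at the 97.4th percentile in DP A, the 98.4th in DP A1 and the 68.7th in DP B. This was the strongest GATA6 peak of the window in all 3 DP libraries, with rank 202 of 8316, 57 of 3821 and 359 of 1391. SOX2 at that site reached the 84.6th percentile in DP A and the 91.9th in DP A1, and no peak was listed in DP B or in any of the 7 pluripotent libraries.

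The strongest GATA6 peak of the window in both nEnd libraries lay 8.4 kb upstream, with signal 250 and rank 20 of 32510 in clone B12 and signal 283 and rank 7 of 24223 in clone B9. In DP the same site stood at the 93.3rd, 93.5th and 35.8th percentiles, and SOX2 was listed only in DP A1, at the 16.4th. The site 33.8 kb upstream carried GATA6 in all 5 GATA6 libraries, at the 96.1st, 86.2nd and 55.4th percentiles in DP and the 97.5th and 93.7th in nEnd. SOX2 there was at the 13.2nd percentile in DP A and the 67.4th in DP A1 and was absent from the pluripotent lists. At the site 14.3 kb upstream GATA6 was at the 99.6th and 95.5th percentiles in nEnd against the 26.7th and 45.9th in DP A and A1, with no peak in DP B. The lists differ in length, and the ranks were 125 of 32510 and 1054 of 24223 in nEnd and 5373 of 8316 and 1831 of 3821 in DP. SOX2 was listed in DP A, DP A1 and, of the pluripotent libraries, NACL B12.

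The other co-bound regions were SOX2 sites of the pluripotent libraries too. The peak 199.1 kb upstream, in an intron of the long non-coding RNA Gm6116, was the strongest SOX2 peak of the window in all 10 SOX2 libraries. Its percentile ranged from 99.5 to 99.8 in the pluripotent libraries and was 97.6, 97.1 and 94.9 in DP, and it was the only peak of the window in the DP B list. GATA6 was listed there in 2 of 3 DP libraries, at the 57.4th and 5.44th percentiles, and in both nEnd libraries, at the 86.5th and 65.6th. The site 57.9 kb downstream of the Pdgfra start held SOX2 in all 7 pluripotent libraries, in DP A and in DP A1, and GATA6 in DP A and both nEnd libraries.

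The Kit side had a single co-bound region, in an intron 25.3 kb into the gene. SOX2 was listed there in all 7 pluripotent libraries, at the 56.9th to 89.4th percentiles, and in DP A and DP A1 at the 13.2nd and 58.1st. GATA6 was weak where it was listed, at the 35.4th percentile in DP A and the 34.4th and 17.4th in nEnd. The strongest nEnd GATA6 peak of the Kit segment lay 49.6 kb into the gene, with signal 50 in clone B12 and 74 in clone B9, and it had no DP peak.

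**Figure D1:**
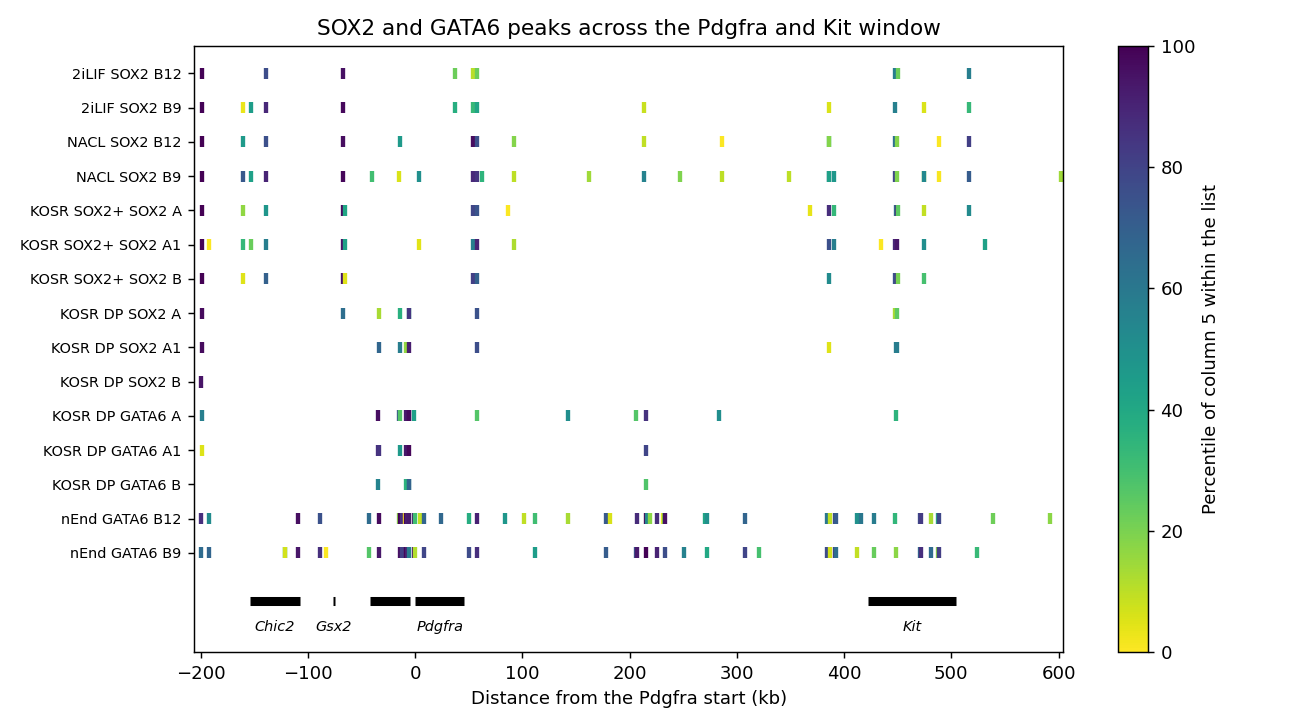
SOX2 and GATA6 peaks of the 15 libraries by distance in kb from the Pdgfra start (x axis), 1 row per library, coloured by the percentile of peak signal (column 5) within the list, with 5 gene bodies in black (Gm19583, just upstream of Pdgfra, is not labelled). The peak 199.1 kb upstream recurs in all 10 SOX2 libraries, and DP SOX2 peaks stand beside DP GATA6 peaks from 33.8 to 5.6 kb upstream of Pdgfra, where pluripotent SOX2 peaks are few.

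All 7 co-bound regions had GATA6 in both nEnd libraries, against a background of 57.8% of the regions co-bound in DP genome-wide. SOX2 was listed in at most 1 pluripotent library at 4 of the 7, those inside Gm19583, against 38.2% genome-wide. SOX2 in DP was listed in 10 regions of the window, of which 7 had DP GATA6, against 35.5%. GATA6 in DP was found in 13 of the 87 regions (14.9%, background 12.0%), GATA6 in both nEnd libraries in 36 (41.4%, background 27.2%) and SOX2 in at least 5 of the 7 pluripotent libraries in 11 (12.6%, background 13.2%). The shares for DP GATA6 and for pluripotent SOX2 were thus near their backgrounds. Of the 13 regions with DP GATA6, 12 had GATA6 in at least 1 nEnd library, against 61.6%, and of the 36 nEnd regions 9 had SOX2 in any library, against 19.3%. The 87 regions are neighbours on a chromosome and are not independent, and 31 were listed in a single library.

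Pluripotent SOX2 sites without GATA6 were spread over both segments. The region 66.9 kb upstream of Pdgfra was at the 94.6th to 98.2nd percentiles in all 7 pluripotent libraries and at the 64.1st in DP A, and was not listed in DP A1 or DP B. The regions 139.0 kb upstream, in an intron of Chic2, and 53.8 kb downstream of the Pdgfra start were listed in all 7 pluripotent libraries and in no DP library. Around Kit, the region 36.9 kb upstream was listed in 6 pluripotent libraries and DP A1, and the one 93.8 kb downstream of the Kit start in 5 pluripotent libraries. The intronic region 26.8 kb into Kit was listed at the 85.8th, 93.9th and 83.9th percentiles in SOX2+, the 18.7th and 19.5th in NACL and the 24.6th and 58.1st in DP A and A1, with no peak in 2iLIF. Percentiles depend on list length, and by rank DP A1, at 1946 of 5320, was inside the SOX2+ ranks of 1182 to 2229. DP A, at 3084 of 4859, was outside them, and DP B had no peak there. GATA6 in all 5 libraries was found at 4 of the 87 regions, against 1.15% of merged regions genome-wide. They were the 3 upstream of Pdgfra named above and the one 215.1 kb downstream of its start, which had no SOX2 and GATA6 signal of 183 in each nEnd library.

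**Figure D2:**
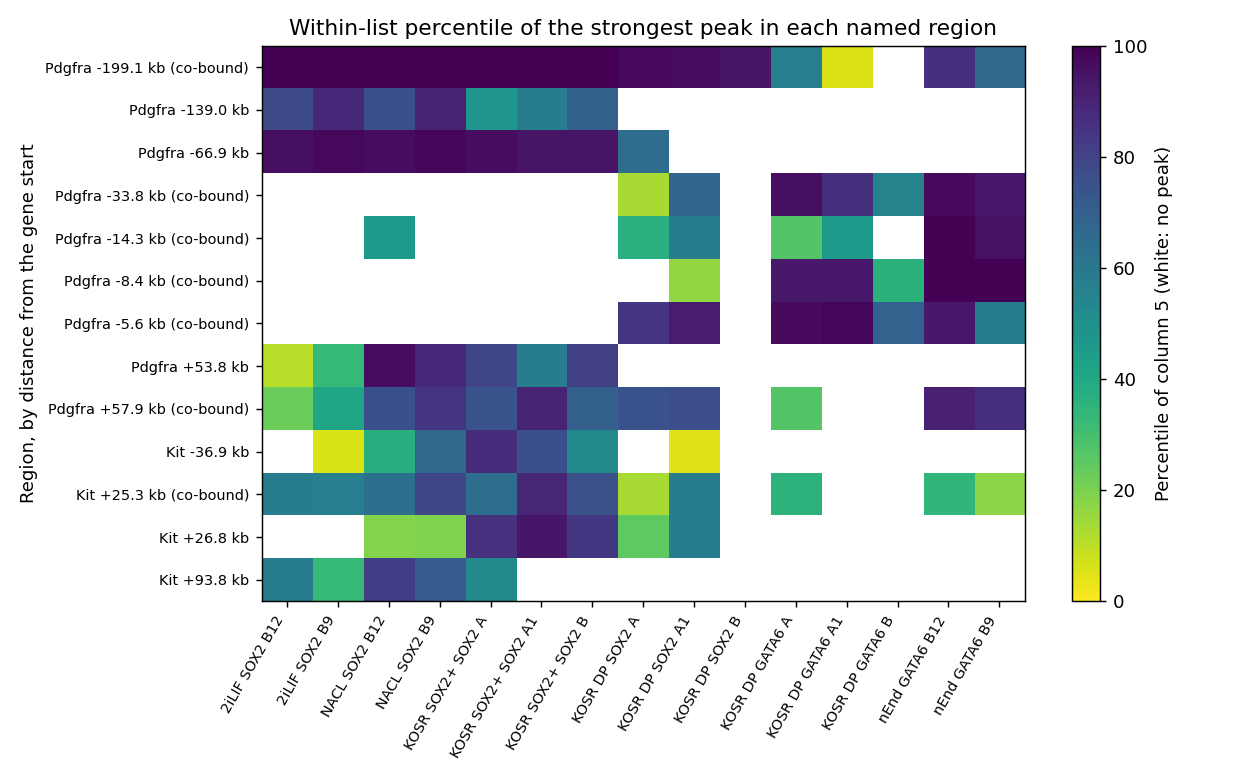
Percentile of the strongest peak signal (column 5) within each list (colour, white where no peak was listed) for 13 regions (rows, distance from the start of the nearer named gene in kb) and 15 libraries (columns). The 4 co-bound rows between 33.8 and 5.6 kb upstream of Pdgfra are white in the pluripotent SOX2 columns but for NACL B12 at 14.3 kb, and the row 199.1 kb upstream is dark in all SOX2 columns.

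Peaks at the gene starts themselves differed between the genes. Within 1 kb of the Pdgfra start GATA6 was listed in both nEnd libraries and in DP A, and SOX2 in none of 10 libraries. The nEnd peak 0.7 kb upstream stood at the 92.8th and 93.2nd percentiles and the DP A peak at the 43.6th. Within 1 kb of the Kit start neither factor was listed in any library.

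SOX2 peaks of the Pdgfra segment were compared per 1000 peaks of the list, to ask whether DP cells hold more of their SOX2 there. The 7 pluripotent libraries ranged from 0.473 to 0.731 with a median of 0.534. DP A stood at 1.44, DP A1 at 1.13 and DP B at 0.726, from 7, 6 and 1 peaks. DP B lay inside the pluripotent range and the other DP libraries above it. The means were 1.10 ± 0.358 (SD, n = 3) in DP and 0.584 ± 0.107 (SD, n = 7) in pluripotent libraries, a ratio of 1.88, with p = 0.0333 in a two-sided exact permutation test (the smallest it allows is 0.0167) and 0.0667 after adjustment over the 2 segments. Against SOX2+ alone, at 0.476, 0.534 and 0.666, every DP library was higher (exact permutation p = 0.10, the smallest for 3 against 3, adjusted p = 0.20). These SOX2+ libraries are part of the pluripotent group, so the comparisons are not independent. The adjusted p fell to 0.0476 without 2iLIF B12 and to 0.0333 with the stronger 50% of each list. In both settings the DP B value came from 1 peak, that 199.1 kb upstream, which all 7 pluripotent libraries also listed. With each list reduced to its 1378 strongest peaks, the length of the DP B list, the means were 1.69 and 1.56 and the difference fell to 0.138 (exact permutation p adjusted to 1).

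In the Kit segment SOX2 did not differ beyond the spread of the libraries. The pluripotent values ran from 0.304 to 0.476 per 1000 with a median of 0.409, and DP A, A1 and B stood at 0.412, 0.564 and 0. The means were 0.325 ± 0.292 (SD, n = 3) and 0.401 ± 0.0673 (SD, n = 7), with an exact permutation p of 0.55. Against SOX2+, at 0.476, 0.340 and 0.476, the exact permutation p was 0.80. The sign of both differences turned when DP B, which had no peak in the segment, was left out.

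GATA6 in DP was above nEnd at Pdgfra and below it at Kit, on the scale of peaks per 1000. In the Pdgfra segment DP A, A1 and B held 1.44, 1.83 and 3.59 peaks per 1000, from 12, 7 and 5 peaks, and nEnd B12 and B9 held 1.05 and 1.07, from 34 and 26. Every DP library was higher than both nEnd libraries, with means of 2.29 ± 1.15 (SD, n = 3) and 1.06 ± 0.0195 (SD, n = 2). Without DP B the difference fell from 1.23 to 0.578. In the Kit segment DP held 0.241, 0 and 0 against 0.554 and 0.702 in nEnd, from 2, 0 and 0 peaks against 18 and 17. Every DP library was lower there, with means of 0.0802 ± 0.139 (SD, n = 3) and 0.628 ± 0.105 (SD, n = 2). With 3 against 2 libraries the two-sided exact permutation test cannot go below 0.20, which is the p of both comparisons. The DP lists were the shorter, and with 1391 peaks kept in each list the Pdgfra means were 3.59 and 2.88 (exact permutation p = 0.80) and no library kept a GATA6 peak in the Kit segment.

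H3K27ac covered the Pdgfra gene body in endoderm cells and barely in pluripotent ones. In nEnd B12 and B9 peaks covered 92.4% and 91.8% of the Pdgfra body, against 0% to 12.8% in the 6 pluripotent libraries (median 3.82%) and 3.76% in the DP library. Divided by the genome's share, the body was at 14.4 and 18.2 in nEnd, 0 to 0.806 in pluripotent libraries and 1.60 in DP. On that scale the DP library was above every pluripotent one. Over the stretch from the Gm19583 start to the Pdgfra start peaks covered 41.8% and 32.3% in nEnd, 0% to 23.7% in pluripotent libraries and 18.3% in DP. In the KOSR cultures, both SOX2+ libraries had no H3K27ac peak over that stretch or the Pdgfra body, and the DP library had 11 peaks over the stretch and 4 over the body. The DP library holds 76260 peaks against 13514 and 14722 in SOX2+, and the part of list length in that difference was not tested.

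Across the Pdgfra segment, H3K27ac coverage relative to the genome was 5.17 and 5.90 in nEnd against 0.779 to 1.29 in pluripotent libraries (median 1.08) and 1.75 in DP. The means were 5.54 ± 0.519 (SD, n = 2) and 1.06 ± 0.193 (SD, n = 6), a ratio of 5.24. The groups did not overlap, and the exact permutation p of 0.0714 is the smallest that 2 against 6 libraries allow. The ratio has a ceiling in a list that covers much of the genome, which was 4.64 for 2iLIF B12 and 6.28 to 7.59 for the other 2iLIF and NACL libraries. Without division by the genome's share, nEnd covered 33.2% and 29.7% of the segment and the pluripotent libraries 0.748% to 21.2%.

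The Kit start carried H3K27ac in every library. A peak lay within 1 kb of the Kit start in all 9 assigned H3K27ac libraries and in the unassigned one. Within 1 kb of the Pdgfra start a peak was listed in 1 of 2 libraries of 2iLIF, 1 of 2 of NACL, the DP library and both nEnd libraries, and in no SOX2+ library, and NACL B12 covered all of that interval as nEnd did. The Kit body was covered to 82.0% and 94.7% in nEnd, to 34.5% to 57.1% in 2iLIF and NACL, to 6.69% and 4.63% in SOX2+ and to 7.80% in DP. Divided by the genome's share, the Kit body was at 12.8 and 18.8 in nEnd, 2.17 to 4.33 in 2iLIF and NACL, 6.98 and 4.41 in SOX2+ and 3.32 in DP, so the order of SOX2+ against 2iLIF and NACL turned. The 2iLIF and NACL lists could not exceed 4.64 to 7.59 on that scale, below both nEnd values. Across the Kit segment the ratio to the genome was 3.68 and 5.83 in nEnd against 1.03 to 2.34 in pluripotent libraries (median 1.25) and 1.17 in DP. The means were 4.75 ± 1.52 (SD, n = 2) and 1.42 ± 0.489 (SD, n = 6), with an exact permutation p of 0.0714. Without the division, nEnd B12 covered 23.6% of the segment and 2iLIF B12 23.9%, so the groups then overlapped.

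H3K4me1 in the Pdgfra segment was higher in both nEnd libraries than in any pluripotent one, and in the Kit segment the groups overlapped. With the stronger 50% of each list both nEnd libraries were below every pluripotent library in the Kit segment (difference -0.641), as they were within 50 kb of the Kit start (-1.69), each with an exact permutation p of 0.0714, the smallest possible. The difference between the genes was not tested. In the Pdgfra segment the ratio to the genome was 5.11 and 5.73 in nEnd, 3.01 in DP and 1.45 to 2.09 in pluripotent libraries (median 1.72). The means were 5.42 ± 0.441 (SD, n = 2) in nEnd and 1.75 ± 0.243 (SD, n = 6), a ratio of 3.10, with an exact permutation p of 0.0714 and 0.143 after adjustment. In the Kit segment nEnd stood at 2.20 and 2.30, inside the pluripotent range of 1.74 to 2.88, and DP at 2.10 (exact permutation p = 0.571 for nEnd against pluripotent). Upstream of Pdgfra, over the stretch from the Gm19583 start, H3K4me1 covered 65.0% and 57.6% in nEnd, 66.6% in DP and 0% to 17.1% in pluripotent libraries. Divided by the genome's share, these values were 10.7 and 19.6 in nEnd, 9.18 in DP and 0 to 2.26 in pluripotent libraries, and those of H3K27ac over the same stretch were 6.50 and 6.41, 7.80 and 0 to 1.49. With that division the DP library went from above both nEnd libraries to below them for H3K4me1, and from below both to above them for H3K27ac. On either scale it was above every pluripotent library for H3K4me1. Within 1 kb of the Pdgfra start neither nEnd library had an H3K4me1 peak, although H3K27ac covered all of that interval in both. The same was so at the Kit start, where H3K27ac covered 89.8% and 98.0% in nEnd.

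**Figure D3:**
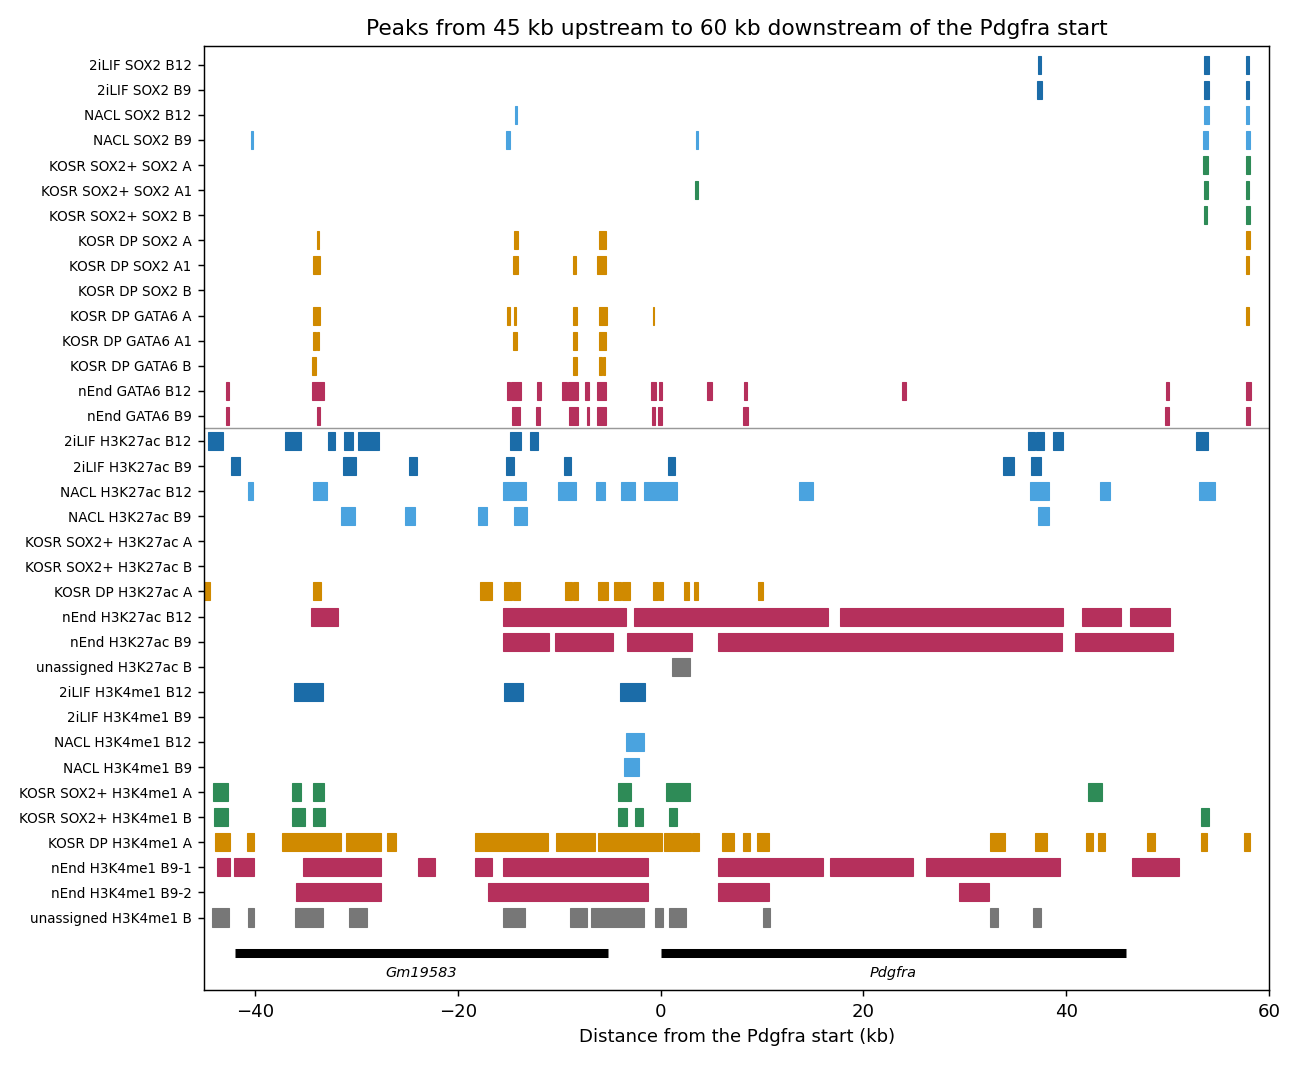
Peaks (bars, to scale) of all 35 libraries from 45 kb upstream to 60 kb downstream of the Pdgfra start (x axis in kb), transcription factors above the grey line and histone marks under it. DP SOX2 and DP GATA6 peaks fall in the same merged regions at 33.8, 14.3, 8.4 and 5.6 kb upstream, where the DP library also has H3K27ac and H3K4me1. Both SOX2+ libraries have H3K4me1 at 33.8 kb, and NACL has H3K27ac at each of the 4 sites in at least 1 library.

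At the co-bound regions themselves, H3K4me1 of the DP library overlapped 7 of 7, against 91.2% of all regions co-bound in DP, and its H3K27ac 5 of 7, against 77.5%. The exceptions for H3K27ac were 199.1 kb upstream and 57.9 kb downstream of the Pdgfra start. A SOX2+ library overlapped 3 of 7 with H3K4me1, against 66.7%, and 1 of 7, the Kit intron, with H3K27ac, against 35.9%. Both nEnd libraries overlapped 5 of 7 with H3K27ac, against 42.4%, and 5 of 7 with H3K4me1, against 49.5%. The DP lists are longer than those of SOX2+ for both marks, so a count in one is not read against a count in the other. H3K27ac in pluripotent cells was not absent from these sites, since all 4 libraries of 2iLIF and NACL had a peak at 14.3 kb upstream and NACL had one in at least 1 library at each of the 4 sites inside Gm19583. Of the 36 regions with GATA6 in both nEnd libraries, 29 carried H3K27ac in both nEnd libraries, against 58.5% of such regions genome-wide, and 3 in a SOX2+ library, against 12.9%. Of the 11 regions with SOX2 in at least 5 pluripotent libraries, 3 carried H3K27ac in both nEnd libraries, against 21.9%.

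The unassigned libraries, given apart, shared some of these features. The H3K27ac library had 6 peaks in each segment, at ratios to the genome of 1.83 for Pdgfra and 2.13 for Kit, and none over the stretch upstream of Pdgfra. The H3K4me1 library had 39 and 27 peaks, at ratios of 2.51 and 2.21, and covered 35.0% of that stretch. Its peaks overlapped 6 of the 7 co-bound regions, against 79.3% genome-wide, and those of the H3K27ac library 1, the Kit intron, against 45.5%.

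**Figure D4:**
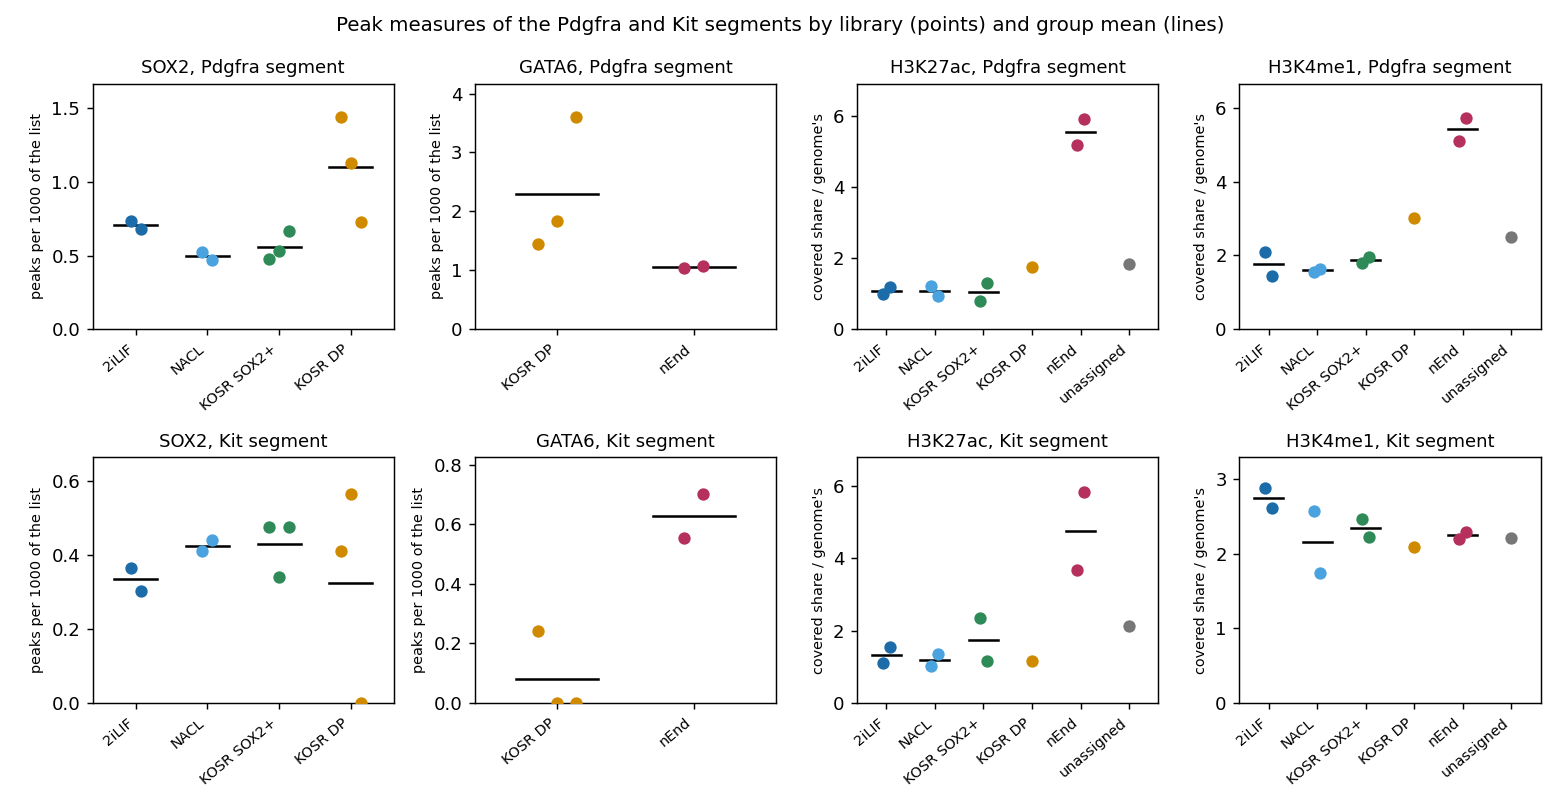
Values per library (points) and group means (lines, where a group has over 1 library) for the Pdgfra segment (top row) and the Kit segment (bottom row). The y axes give SOX2 and GATA6 peaks per 1000 peaks of the list and histone coverage divided by the genome's. nEnd stands above the other groups for both marks at Pdgfra and for H3K27ac at Kit, and DP GATA6 stands above nEnd at Pdgfra and below it at Kit.

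The same measures were taken within 50 kb of the start of every protein-coding gene with a peak in at least 1 library of the comparison, to show how common such separations are. For GATA6, every DP library was above both nEnd libraries at Pdgfra and at 5.39% of 15529 genes, and Pdgfra had rank 28 of these genes by the difference in means. DP A, A1 and B held 0.842, 1.31 and 2.88 GATA6 peaks per 1000 within 50 kb of the Pdgfra start and nEnd B12 and B9 held 0.461 and 0.454, so the rank leans on DP B, whose list is the shortest. Every DP library was below both at Kit, Chic2 and 45.3% of genes, so that direction is the more common one. By size the Kit difference of -0.299 was near the low end, at rank 15402, with 0.805% of genes below it. For H3K27ac, both nEnd libraries were above all pluripotent libraries at Pdgfra, Kit, Chic2 and 28.5% of 21255 genes, and below them at 6.37%. Pdgfra was at 10.9 in nEnd against 0.403, the rank 36 difference, and Kit at 9.12 against 3.31, rank 1008. The 2iLIF and NACL lists could not exceed 4.64 to 7.59 on this scale, so they could not reach the nEnd values at Pdgfra or Kit. The part of that ceiling in the H3K27ac calls and ranks was not tested. For H3K4me1, nEnd was above at Pdgfra, Gsx2 and 18.1% of 19519 genes, with 10.7 against 0.871 and rank 47 at Pdgfra. It was below at Kit and 13.1% of genes, with 3.64 against 5.33. For SOX2 neither gene separated DP from pluripotent libraries, which happened upward at 4.82% and downward at 7.44% of 16080 genes, and against SOX2+ at 6.62% and 20.9% of 13344. Within 50 kb of the Pdgfra start DP held 0.525 SOX2 peaks per 1000 on average and pluripotent libraries 0.0580, but DP B held none.

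Chic2, a membrane-associated protein gene, had H3K27ac ratios of 6.39 to 6.81 in nEnd and 2.09 to 5.59 in pluripotent libraries. Gsx2, a homeobox gene of the developing forebrain, overlapped between the groups for H3K27ac, at 3.84 to 4.68 in nEnd and 1.33 to 4.42 otherwise. Its interval takes in the GATA6 site 33.8 kb upstream of Pdgfra, so values of these neighbours are not independent.

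Ligands, related receptors and signalling partners of both receptors were read by the same rule. Of 22 listed genes, 18 had a GATA6 peak, and every DP library was higher at 0 of them and lower at 10 (55.6%, background 45.3%). H3K27ac in nEnd was higher at 7 of 22 (31.8%, background 28.5%) and lower at 2 (9.09%, background 6.37%), with a median difference in the ratio of 1.32 against 0.0776 over all genes. The ceiling of 4.64 to 7.59 in the 2iLIF and NACL lists applies to these H3K27ac values too. H3K4me1 was higher at 5 of 22 (22.7%, background 18.1%) and lower at 3 (13.6%, background 13.1%), with a median difference of -0.556 against -0.0406. SOX2 in DP was higher than in pluripotent libraries at 2 of 17 (11.8%, background 4.82%) and lower at 3 (17.6%, background 7.44%). Against SOX2+ it was higher at 2 of 15 (13.3%, background 6.62%) and lower at 5 (33.3%, background 20.9%). With so few genes called, nothing particular to the list is read from these counts. The 4 genes named next were taken because their groups did not overlap in most comparisons, so their values are a description. Pdgfc, which encodes a PDGFRA ligand, had no H3K27ac or H3K4me1 peak in nEnd, against mean ratios of 3.75 and 6.01 in pluripotent libraries, and no SOX2 peak in DP, against 0.110 per 1000. Pik3r1, the regulatory subunit of PI3 kinase, stood at 7.44 against 1.94 for H3K27ac and 12.6 against 4.18 for H3K4me1, and had no SOX2 peak in DP, against 0.112 per 1000. Src, a cytoplasmic tyrosine kinase, was at 14.5 against 5.96 for H3K27ac and held 0.504 SOX2 peaks per 1000 in DP against 0.167 in pluripotent libraries, with no GATA6 peak in DP against 0.262 per 1000 in nEnd. Flt3, a receptor of the KIT family, was at 4.09 against 2.13 for H3K27ac and at 0.373 against 0.0882 for SOX2, with no GATA6 peak in DP against 0.0360 in nEnd.

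The highest percentile within 50 kb of the start, with 0 where no peak was listed, gave each gene a profile over the 33 assigned libraries. By Pearson's r the profiles most like that of Pdgfra were Cubn (0.89), which encodes an endocytic receptor of visceral endoderm and kidney, Aqp8 (0.87), a water channel gene, and Plekhg4 (0.87). The profiles most like that of Kit were Cadm4 (0.93), Pfdn1 (0.93) and Ccdc88c (0.92). The profiles of Pdgfra and Kit themselves had r = -0.01 with each other. By peaks per 1000 within 50 kb in place of the percentile, 0 of these 3 genes stayed among the 3 nearest of either gene, and Cubn moved to rank 711, Aqp8 to 434, Plekhg4 to 33, Cadm4 to 862, Pfdn1 to 6697 and Ccdc88c to 2961. The libraries share antibodies and their lists differ in length, so these are descriptions only.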

How the data were processed

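CUT&RUN cleaves chromatin beside a bound antibody and sequences the released fragments. Per the submitters' processing notes, reads were handled with cutadapt 1.18, Bowtie2 2.3.4.1, SAMtools 1.9, Picard 2.9.1, bedtools 2.27.1, deepTools 3.2.0 and SEACR (mm10). The authors called peaks with SEACR in each library separately, against the IgG control, and the deposited lists hold signal, as coverage on each library's own scale: its sum over the peak and its maximum (column 5), the second of which was used here. Names of the deposited lists say relaxed for histone marks and stringent for factors, and the study's methods say the reverse. IgG libraries were not used here.

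Groups came from titles and source names. Replicates are clones or, in KOSR, libraries of clone B12 with the suffix A, A1 or B, which was taken as the experiment. The nEnd H3K4me1 replicates are 2 libraries of clone B9. The p-values measure the spread between these libraries. Maxima are compared within a list only, as percentile and rank. Peaks overlapping by 1 bp were merged. Means were compared by two-sided exact permutation tests, Benjamini-Hochberg adjusted over the 2 segments (threshold 0.05). Counting was checked against a direct count in a SOX2 list, and the tests and gene calls on simulated data (Python 3.11.15, NumPy 2.4.6, SciPy 1.17.1). The window, gene lists and tests were chosen with earlier results of these data known. The rule for naming took the protein-coding genes of the window, the label check genes, the 3 nearest profiles of each gene, up to 4 pathway genes whose groups did not overlap in most comparisons, all co-bound regions and, on each side, 3 others listed in most libraries. Alternatives were stronger or equal-sized lists, other windows and overlaps, leaving out each library and replicate blocks.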

Additional observations from a re-analysis of the deposited data

Results flagged for a closer look

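The 2 libraries with conflicting labels entered no comparison and still held peaks in the window. The unassigned H3K27ac library had 6 peaks in the Pdgfra segment and 6 in the Kit segment, and the unassigned H3K4me1 library had 39 and 27. IgG controls were not analysed here. Among the 6 sets of values over 6 or 7 pluripotent libraries examined for a value far from the others, 0 held such a library.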

How the results depend on the processing

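Of 118 alternatives of the tested differences, 111 kept their sign and side of the threshold, and GATA6 at Kit came to 0 with equal numbers of peaks. Outside SOX2 in DP against pluripotent libraries, the smallest possible exact permutation p was 0.0714, 0.10 or 0.20. The side of the threshold was thus fixed in those comparisons, and only the sign could change. It was also fixed for SOX2 in DP against pluripotent libraries when a DP library was left out. Of 13 alternatives of counts, 8 were within 1.5 times. SOX2 at Pdgfra in DP against pluripotent libraries passed the threshold with the stronger 50% of each list (difference 1.04, exact permutation p adjusted to 0.0333) and without 2iLIF replicate B12 (0.539, adjusted to 0.0476). The DP B value in both came from the peak 199.1 kb upstream, which all pluripotent libraries share. Leaving out single libraries gave 0.343 to 0.70 for SOX2 at Pdgfra against pluripotent libraries and 0.368 to 0.726 against SOX2+. SOX2 at Kit reversed within 50 kb of the start (0.0797 and, against SOX2+, 0.0184) and without DP B (0.0866 and 0.0575), with ranges of -0.195 to 0.0866 and -0.225 to 0.0575. Other leave-one-out ranges were 0.578 to 1.65 for GATA6 at Pdgfra, lowest without DP B, -0.628 to -0.474 at Kit, 4.11 to 4.85 for H3K27ac at Pdgfra, 2.26 to 4.41 at Kit, 3.36 to 3.99 for H3K4me1 at Pdgfra and -0.306 to -0.0772 at Kit. The stronger 50% of each list left 50 merged and 4 co-bound regions, 2 libraries of each factor left 4, and single libraries left 5 to 7. By peaks per 1000, 0 of the 3 nearest profiles of either gene remained.

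With the experiment as a replicate block, SOX2 in DP against SOX2+ had a difference of 0.540 at Pdgfra (exact permutation p adjusted to 0.50) and -0.105 at Kit (0.75). With the clone as a replicate block, H3K27ac differed by 4.48 at Pdgfra and 3.33 at Kit (both adjusted to 0.133). At these group sizes no call was possible with or without a block. Correlations of deviations over genes were 0.0594, 0.0390 and 0.133 for the experiments and 0.0693 and -0.00344 for the clones. Libraries of an experiment or clone may share a source, which these correlations do not settle. The number of libraries limits every p, and the short DP lists limit what counts as listed.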
